A study of Mus musculus with 6 samples.

Results

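Cyclosporin A (CsA) treated and untreated cardiac allografts of mice were compared on 1 array each, 2 of the 6 arrays of the series. The comparison covers all 22626 probe sets other than the 64 controls, of 22690 on the array, and they stand for 12393 genes. An allograft is a transplant between genetically different animals, and the tissue is the transplanted heart. The treated mice had received CsA at 15 mg/kg every 24 h, and the mice of the untreated allograft had received no drug. The other allografts came from mice given ABH4 (4-amino tetrahydrobiopterin, 50 mg/kg every 8 h), BH4 (tetrahydrobiopterin, 50 mg/kg every 8 h) or NIL (N-imino ethyl-L-lysine, 5 mg/kg every 8 h). The last array held a syngraft, a transplant without a genetic difference, from untreated mice. The strains, the day of removal, the number of grafts behind an array and any vehicle are not given in the sources used here. Because each group had 1 array, no difference below could be checked against a spread between replicates, and no test was made.

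CsA binds the cytosolic protein cyclophilin A inside cells, and the pair of molecules blocks calcineurin, a calcium-dependent phosphatase. Calcineurin normally removes phosphates from the NFAT transcription factors, which then enter the nucleus and switch on cytokine genes in stimulated T cells. In a rejecting heart, recipient T cells enter the graft, release interferon-gamma and kill donor cells with granule proteins, and the interferon turns on antigen presentation genes in the tissue.

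Signal is the linear intensity of a probe set after the arrays were brought to a common median. A signal under 34.8, the 30th percentile of all values, was set to that floor, so a gene at the floor on 1 array gives only a bound, written as at least. The deposited medians were 88.4 with CsA and 77.7 in the untreated allograft, a difference of 0.19 on the log2 scale. The 3' to 5' ratio, a measure of RNA integrity, was 1.06 for Actb with CsA and 1.12 in the untreated allograft. The ratio of Gapdh was 0.788 with CsA and 0.857 in the untreated allograft. All 7 cardiomyocyte markers were above the floor on every array. Their summed signal was 44912 with CsA, 35840, 42556 and 39413 with ABH4, BH4 and NIL, 42606 in the untreated allograft and 47157 in the syngraft.

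With CsA, 396 of 12393 genes had at least 2-fold more signal than in the untreated allograft (3.20%), and 497 had at least 2-fold less (4.01%). Counted as single probe sets, 609 of 22626 were that much higher (2.69%) and 862 lower (3.81%). At least 3-fold, the gene counts were 125 higher (1.01%) and 135 lower (1.09%). Without bringing the medians together, 594 genes passed 2-fold upwards and 323 downwards, so the balance of the directions depended on the scaling. For comparison, each against the same untreated allograft array, the 2-fold counts were 84 higher (0.678%) and 35 lower (0.282%) with ABH4. They were 191 (1.54%) and 51 (0.412%) with BH4, and 162 (1.31%) and 98 (0.791%) with NIL. Set against the syngraft, the CsA allograft had 280 genes at least 2-fold higher (2.26%) and 177 lower (1.43%). The untreated allograft had 849 (6.85%) and 592 (4.78%) against that array.

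The CsA signals were also set beside those of the syngraft. Of the 396 higher genes, 355 were within 2-fold of the syngraft with CsA (89.6%) and 33 were at least 2-fold above it. Of the 497 lower genes, 401 were within 2-fold of the syngraft (80.7%) and 61 were at least 2-fold above it, where 11936 of all 12393 genes were within 2-fold (96.3%). CsA often lay outside the range of the other 4 allografts: it was above all of them in 356 of the 396 genes and below all of them in 473 of the 497. Over all genes, CsA was above all 4 in 20.0% and below all 4 in 26.5%, and it was at least 2-fold beyond them in 94 genes upwards (0.758%) and 218 downwards (1.76%). Without the BH4 array, whose salivary gland markers summed to 8975 against 69.6 with CsA and without treatment, it was at least 2-fold beyond the other 3 in 185 genes upwards and 273 downwards. The counts within the 396 and 497 genes reuse the CsA array that chose the genes, and those against the other allografts also the untreated array, so they describe the genes and support nothing further. Where a 2-fold different gene had another probe set above the floor, all its other probe sets pointed the same way in 246 of 288 genes (85.4%), against 2150 of 3635 (59.1%) of all genes.

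**Figure D1:**
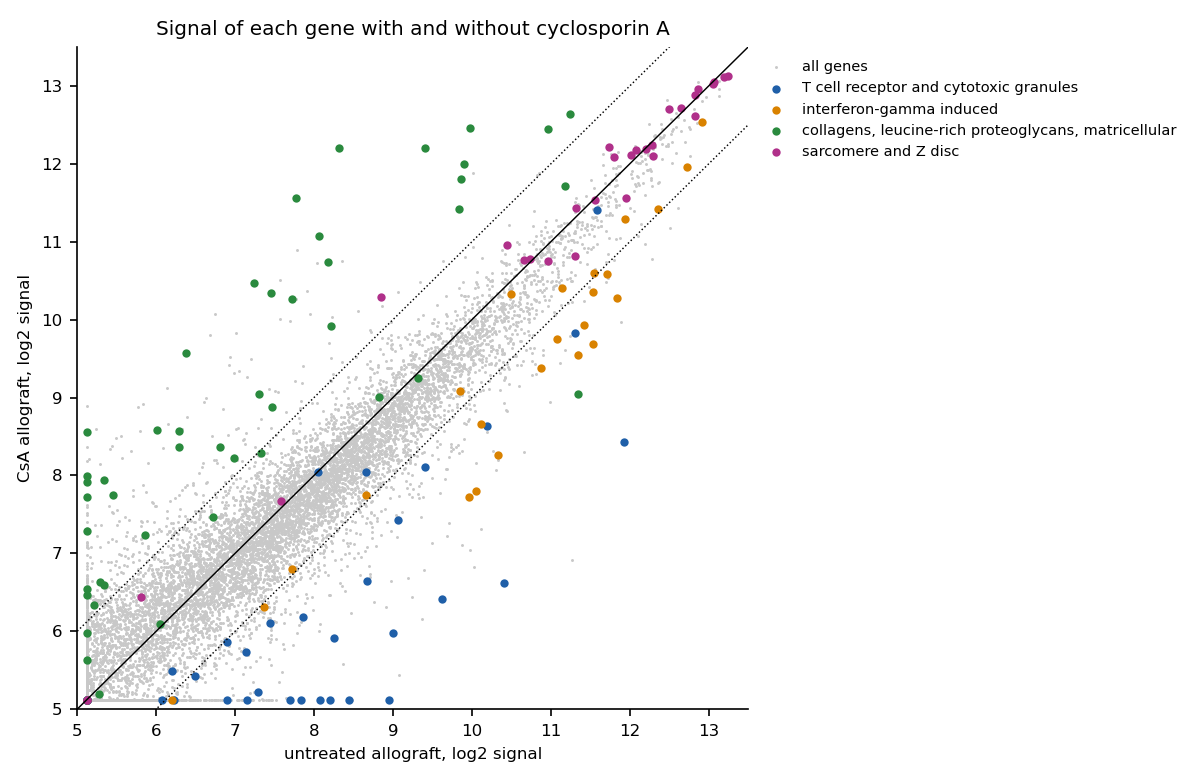
Each point is 1 of 12393 genes, with its log2 signal on the untreated allograft array (x) and on the CsA array (y); the solid line marks equal signals and the dotted lines a 2-fold difference. Most T cell receptor, cytotoxic granule and interferon-gamma induced genes lie below the line of equal signals, most matrix genes above it, and sarcomere genes along it.

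Genes of the T cell receptor and its first signalling steps were lower with CsA. Of 19 measured, 17 were at least 1.5-fold lower and 0 higher, where 12.2% of all genes were lower and 9.27% higher by that fold. All genes include 2495 at the floor on both arrays, whose difference is 0 by construction, so the shares among the other 9898 are larger. The list median was -1.64 on the log2 scale, against 0 over all genes. Cd3d, a chain of the CD3 complex that carries the receptor's signal, was at the floor with CsA and in the syngraft. Its signal was 522 with ABH4, 343 with BH4, 457 with NIL and 495 in the untreated allograft, so it was at least 14.2-fold lower with CsA than without treatment. The 4 other allografts were all far above the CsA array. Cd3e, its partner chain, was at the floor with CsA and had 375, 259 and 406 with ABH4, BH4 and NIL and 349 in the untreated allograft, at least 10.04-fold more than with CsA. Cd3g was above the floor on both arrays, with 63.2 with CsA and 512 in the untreated allograft, 8.1-fold lower. Lat, the membrane adaptor that links the receptor to calcium release, was at least 8.44-fold lower.

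Chains of the CD8 co-receptor were lower as well. Cd8a had 68.8 with CsA, 310.0, 227 and 269 with ABH4, BH4 and NIL and 173 in the untreated allograft, 2.52-fold lower with CsA. The untreated allograft was the lowest of the 4 other allografts for this gene. Cd8b1 was at the floor with CsA and at 142 without treatment, at least 4.08-fold lower. Cd4, the co-receptor of helper T cells, was at the floor on all 6 arrays. Zap70, the kinase recruited to the activated receptor, had 264 with CsA, 251, 361 and 301 with ABH4, BH4 and NIL, 264 in the untreated allograft and 334 in the syngraft, so that its CsA value lay inside the range of the other arrays. Variable segments of the receptor's own chains were lower too: Trav9d-3 of the alpha chain had 158 with CsA and 1110.2 without treatment, 7.02-fold lower, and Trbv1 of the beta chain was 6.98-fold lower. Batf, a transcription factor of activated lymphocytes, had 47.9 with CsA and 330.2 without treatment, 6.9-fold lower.

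Of the 4 measured markers fixed for T cells, 3 were at the floor with CsA, and their summed signal was 168 with CsA, between 1049 and 1578 in the 4 other allografts and 139 in the syngraft, where all 4 were at the floor. In whole tissue, fewer T cells and less of these transcripts per T cell cannot be told apart, and the same holds for every cell type below.

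The proteins with which cytotoxic lymphocytes kill had the same direction. Of 17 measured granule genes, 11 were at least 1.5-fold lower and 0 higher, with a median of -1.48, and 5 were at the floor on both arrays. Gzmb, a granzyme that triggers death of the target cell, had 346 with CsA, 3703, 2973 and 3358 with ABH4, BH4 and NIL, 3888 in the untreated allograft and the floor in the syngraft. It was thus 11.2-fold lower with CsA than without treatment and still at least 3.31 above the syngraft on the log2 scale. Gzma had 98.4 with CsA and 1353 without treatment, 13.7-fold lower, and 59.8 in the syngraft. Nkg7, a granule membrane protein, was 9.2-fold lower and the cysteine protease Ctsw at least 7.73-fold lower. Prf1, the pore-forming perforin, had 100.1 with CsA and 408 without treatment, 4.07-fold lower, although another probe set of the gene pointed the other way. The granzymes Gzmd, Gzme, Gzmf and Gzmg were at the floor on both arrays.

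Natural killer cells share much of this machinery with CD8 T cells. Of 13 measured genes for their receptors and lineage factors, 7 were at least 1.5-fold lower and 0 higher, with a median of -1.004. Tbx21, the transcription factor of interferon-gamma producing lymphocytes, had 38.7 with CsA and 125 without treatment, 3.22-fold lower. Klrd1 was 2.91-fold and Il2rb, a subunit of the interleukin-2 receptor, 3.0-fold lower. Ncr1, a receptor largely specific to natural killer cells, had 86.6 with CsA and 114 without treatment.

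Receptors that restrain or costimulate T cells included 13 of 18 that were at least 1.5-fold lower and 1 higher, with a median of -1.10. In this group 4 inhibitory or activation-induced receptors were at the floor with CsA. Ctla4, which competes with CD28 for its ligands, had 219.7, 136 and 168 with ABH4, BH4 and NIL and 176 in the untreated allograft, at least 5.05-fold more than with CsA. Pdcd1 was at least 4.82-fold, Lag3 at least 4.55-fold and Tnfrsf18 at least 4.92-fold lower. The PD-1 ligands, found on tissue and myeloid cells, were measured above the floor. Cd274 had 663 with CsA, 1723, 1512 and 1479 with ABH4, BH4 and NIL, 1882 without treatment and 56.4 in the syngraft, so it was 2.84-fold lower with CsA while its CsA value stood 3.56 above the syngraft on the log2 scale. Icosl, the ligand of ICOS, was the only member at least 1.5-fold higher, with 141 with CsA and 85.2 without treatment.

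Genes of helper and regulatory T cells, among them lineage factors, cytokines and receptors, showed smaller differences. Of 10 measured, 2 were at least 1.5-fold lower and 0 higher, with a median of -0.13 (0 on the deposited scale). Foxp3, the regulatory T cell factor, had 35.9 with CsA and was at the floor without treatment, 39.2 with ABH4 and 53.9 in the syngraft, so that all values lay near the floor. Gata3 was at the floor on both arrays. The 2 lower members were no lineage factors. The cytokine Il10 was 2.04-fold lower, with 39.3 with CsA and 80.3 without treatment, and the other was the receptor chain Il2ra.

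The drug's own pathway was close to the untreated level in transcripts. Of 14 genes for calcineurin, NFAT proteins and their regulators, 1 was at least 1.5-fold lower and 0 higher, and the median was -0.10, or 0.09 on the deposited scale. Rcan1, a calcineurin inhibitor whose own gene NFAT induces, had 1384 with CsA, 1169.7, 1112 and 1211 with ABH4, BH4 and NIL, 1428 in the untreated allograft and 1914 in the syngraft. The CsA value therefore lay inside the range of the other arrays. Nfatc1 had 160.0 with CsA and 179 without treatment, and Nfatc2 154 with CsA and 141 without treatment. The single member past 1.5-fold was Nfatc3, with 52.7 with CsA and 87.2 without treatment. The catalytic subunit Ppp3ca had 300.2 with CsA and 214 without treatment, and it had another probe set of opposite sign.

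Among 8 measured cyclophilins and related prolyl isomerases, 1 was at least 1.5-fold higher and 1 lower. Ppic, the secretory pathway member, had 390.3 with CsA and 176 without treatment, 2.22-fold higher, and 511 in the syngraft. Ppil2 was 1.93-fold lower. Ppif, the mitochondrial cyclophilin that governs the permeability transition, had 660.2 with CsA and 698 without treatment, with another probe set of opposite sign.

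Genes that NFAT is known to induce in T cells split into those measured and those at the floor. Of 18, 7 were at least 1.5-fold lower, 0 higher, and 5 at the floor on both arrays, which left a median of 0. Ifng, the cytokine that drives antigen presentation, had 102 with CsA, 738, 400.0 and 484 with ABH4, BH4 and NIL, 586 without treatment and the floor in the syngraft, 5.72-fold lower with CsA. Ccl3, a chemokine for monocytes and T cells, had 43.5 with CsA and 538 without treatment, 12.4-fold lower, and BH4 and NIL had 216 and 292. The CsA value was close to the syngraft's 35.5. Xcl1, the chemokine that attracts cross-presenting dendritic cells, was 5.64-fold and Tnf 2.57-fold lower. Il2, the best known NFAT target, was at the floor on all 6 arrays, so that its response could not be read here, and Csf2, Il3 and Tnfsf11 were at the floor on both compared arrays. The early response factors Egr2 and Egr3, which NFAT also induces, were not lower: Egr3 had 158 with CsA and 111 without treatment, and Egr2 95.8 with CsA and 68.1 without treatment.

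**Figure D2:**
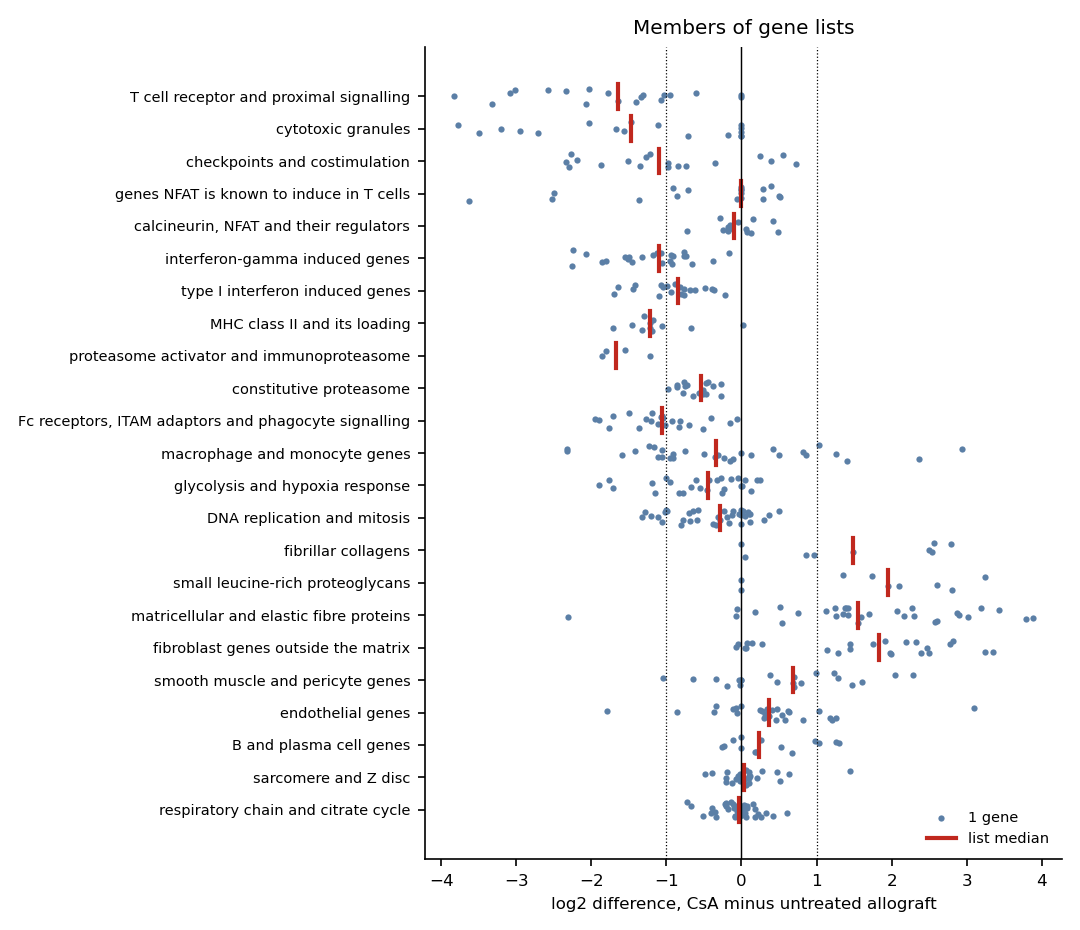
Each point is a measured gene of the list named on the left, placed at its log2 difference of CsA minus untreated allograft (x); the red bar is the list median and the dotted lines mark a 2-fold difference. The medians of the T cell receptor, cytotoxic granule, checkpoint, interferon and MHC class II lists lie left of 0, those of matrix and fibroblast lists right of it. Sarcomere, respiratory chain and calcineurin lists have medians close to 0. The NFAT-induced list has a median of 0, and B and plasma cell genes one of 0.23. List medians run from -1.68 for the immunoproteasome to 1.95 for the small leucine-rich proteoglycans.

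Interferon-gamma induced genes were lower with CsA but remained well above the syngraft. Of 24 measured, 22 were at least 1.5-fold lower and 0 higher, with a median of -1.10. Against the syngraft, the median was 2.49 with CsA and 3.64 in the untreated allograft. The members differed widely in how far they were lowered. Upp1, uridine phosphorylase, had 223 with CsA and 1064 without treatment, 4.76-fold lower, and the guanylate-binding protein Gbp8 was 4.74-fold lower. Ubd, a ubiquitin-like modifier, had 307 with CsA and 1287 without treatment, 4.19-fold lower. At the other end, the chemokine Cxcl10, which draws CXCR3-bearing T cells, had 1284 with CsA, 1749, 1488 and 1222 with ABH4, BH4 and NIL, 1442 without treatment and 77.9 in the syngraft. Its CsA value lay inside the range of the other allografts. Cxcl9, a second CXCR3 ligand, had 2498 with CsA and 3938 without treatment, 1.58-fold lower, and 159 in the syngraft. Cxcr3, their receptor on T cells, had 106 with CsA and 252 without treatment, 2.38-fold lower. Iigp1, an immunity-related GTPase, had 5944 with CsA and 7728 without treatment, and the transcription factor Irf1 1553 with CsA and 2994 without treatment, 1.93-fold lower.

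The promoter of Gbp2, a guanylate-binding protein gene of the interferon-gamma list, is shown as an example of a repeat read by interferon regulatory factors. It runs from 250 bases before to 50 after the annotated start, from RefSeq on build GRCm38.p6 (chr3:142620413-142620712), 5′ to 3′ on the plus strand, and capitals mark the motif. The repeat, GAAA followed after 2 bases by GAAA, was searched on both strands, and so were the NFAT and TATA motifs, which may share bases with it. Gbp2 holds the repeat on the minus strand, with its leftmost base 59 bases before the start. Its signal was 2748 with CsA, 4804, 5503 and 4451 with ABH4, BH4 and NIL, 5256 without treatment and 191 in the syngraft, 1.91-fold lower with CsA than without treatment.
Gbp2: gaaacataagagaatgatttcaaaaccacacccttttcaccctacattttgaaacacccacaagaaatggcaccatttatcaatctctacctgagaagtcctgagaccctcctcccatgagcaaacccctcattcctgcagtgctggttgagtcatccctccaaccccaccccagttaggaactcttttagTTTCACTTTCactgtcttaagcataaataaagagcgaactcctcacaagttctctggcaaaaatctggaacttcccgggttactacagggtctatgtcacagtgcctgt
The GAAA repeat was in 8 of 17 promoters of the interferon-gamma list (47.1%), in 8 of 14 of the type I interferon list (57.1%) and in 313 of all 9882 (3.17%). Cytotoxic granule genes had it in 3 of 16 (18.8%), the constitutive proteasome in 2 of 15 (13.3%) and the immunoproteasome list in 1 of 4 (25%). Matricellular and elastic fibre genes had it in 1 of 18 (5.56%), the T cell receptor list in 0 of 12 and fibrillar collagens in 0 of 6. Among genes at least 2-fold lower with CsA, 32 of 393 promoters held the GAAA repeat (8.14%), and among those at least 2-fold higher 8 of 294 did (2.72%). The core NFAT motif GGAAAA was in 90 of 393 promoters of lower genes (22.9%), 67 of 294 of higher genes (22.8%) and 2119 of all 9882 (21.4%). It was in 4 of 6 promoters of fibrillar collagens (66.7%) and 8 of 18 of matricellular and elastic fibre genes (44.4%). In the immunoproteasome list it was in 2 of 4 (50%), in the type I interferon list in 5 of 14 (35.7%). The interferon-gamma list had it in 5 of 17 (29.4%) and cytotoxic granules in 4 of 16 (25%). For the T cell receptor list it was 2 of 12 (16.7%), and for the constitutive proteasome 2 of 15 (13.3%). The TATA box TATAAA was in 11.7% of promoters of lower genes, 12.9% of higher genes and 10.1% of all. A match describes letters in the window and says nothing of whether a factor bound there.

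Type I interferon induced genes, which act against viruses, were lower by 1.5-fold or more in 16 of 20 measured and higher in 0. Their median was -0.85, and it stood 1.47 above the syngraft with CsA. Oas3, an activator of RNase L, had 156 with CsA and 504 without treatment, 3.23-fold lower. Zbp1, a nucleic acid sensor, was 3.12-fold and Bst2, tetherin, 2.66-fold lower. CsA was below all 4 other allografts in 13 of the 20. Among the rest, Ifit1 had 754 with CsA, 616 with NIL and 1334 without treatment, and Rsad2 had 796 with CsA, 675 with NIL and 1707 without treatment. For both the NIL array was the lowest of the allografts.

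The machinery that cuts and loads peptides was lower by unequal amounts. The 3 immunoproteasome subunits that interferon-gamma exchanges into the proteasome, Psmb8, Psmb9 and Psmb10, were 3.62-fold, 3.48-fold and 2.93-fold lower. Psmb8 had 821 with CsA, 2723, 2576 and 2621 with ABH4, BH4 and NIL, 2975 without treatment and 346 in the syngraft. The proteasome activator Psme1 was 2.32-fold lower. The constitutive subunits they replace differed less: 8 of 18 were at least 1.5-fold lower, 0 at least 2-fold lower and 0 higher, with a median of -0.54 (-0.36 on the deposited scale). Psmb5, which Psmb8 replaces, had 1124 with CsA and 1559.7 without treatment. It was lowest of the allografts with CsA, and its syngraft value was 1567.

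MHC class I genes and their peptide loading partners stood at least 1.5-fold lower in 8 of 11, against 0 that were higher, for a median of -0.81, and CsA was below all 4 other allografts in 11 of 11. The peptide transporter subunits Tap2 and Tap1 were 2.78-fold and 2.02-fold lower. H2-K1, a class I heavy chain, had 4377 with CsA, 6215, 6931 and 6524 with ABH4, BH4 and NIL, 6938 without treatment and 429 in the syngraft. All allografts were far above the syngraft for this gene and for H2-D1, at 3479 with CsA, 5302 without treatment and 282 in the syngraft, with another probe set of H2-D1 of opposite sign. The heavy chains differ between mouse strains, and how well the probes match each strain was not tested. B2m, the invariant light chain, had 5699 with CsA, 6882 without treatment and 4169 in the syngraft.

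MHC class II genes, which present peptides to helper T cells, included 10 of 11 that were at least 1.5-fold lower and 0 higher, with a median of -1.21. H2-Ab1 had 566 with CsA, 1395, 1059.7 and 1711 with ABH4, BH4 and NIL, 1549 without treatment and 395 in the syngraft, 2.74-fold lower with CsA. The CsA array was thus nearer to the syngraft than to any other allograft. Cd74, the invariant chain, had 2314 with CsA and 5807 without treatment, 2.51-fold lower. H2-DMa, which exchanges peptides on class II, was 3.27-fold lower and Ciita, the master regulator of the class, 2.09-fold lower. H2-Oa, a modulator of that exchange, was the exception, with 90.1 with CsA and 89.1 without treatment. Regulators of interferon signalling, the IRF, STAT and SOCS genes, were lower by 1.5-fold or more in 9 of 25 measured and higher in 0, and their median was -0.46. Socs3 was 2.11-fold and Socs1 1.88-fold lower, both inhibitors of cytokine signalling, while the receptor chain Ifngr1 had 471 with CsA and 350.0 without treatment.

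**Figure D3:**
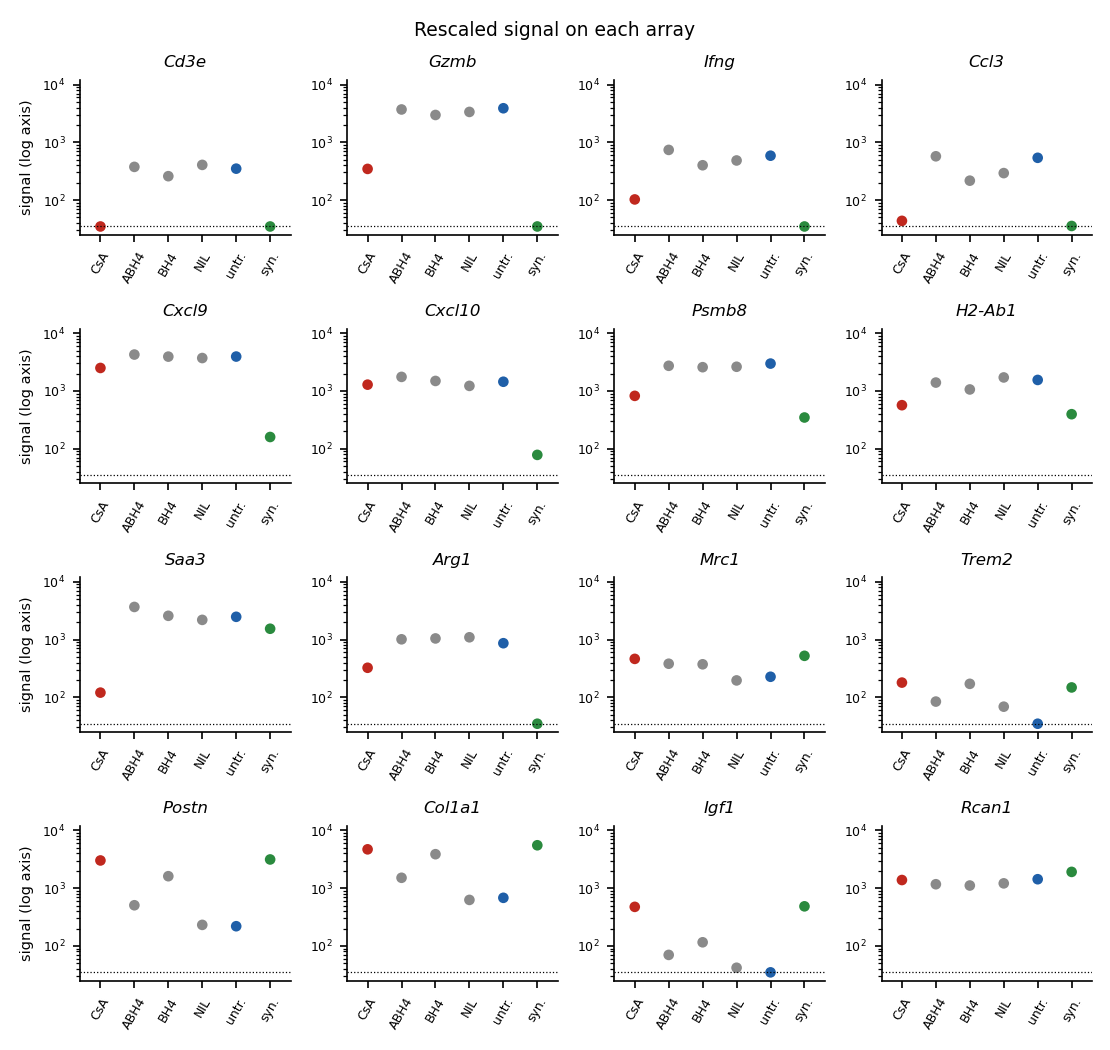
Each panel gives the signal of 1 gene (y, log axis) on the arrays CsA, ABH4, BH4, NIL, untreated allograft and syngraft, with 1 point per array and a dotted line at the floor. Cd3e, Gzmb, Ifng and Ccl3 are lower with CsA than in the 4 other allografts, Cxcl9 and Cxcl10 are far above the syngraft in every allograft, and Postn, Col1a1 and Igf1 are high with CsA and in the syngraft.

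Chemokines did not move as 1 group. Of 18 CXC and CX3C genes, 5 were at least 1.5-fold lower and 4 higher, with a median of -0.08 (0.01 on the deposited scale), and of 25 CC and XC genes 8 were lower and 4 higher, with a median of 0. Ccl5, which T cells and macrophages release, had 317 with CsA, 2145, 1197 and 1907 with ABH4, BH4 and NIL, 1616 without treatment and 141 in the syngraft, 5.11-fold lower with CsA. Ccr1, a receptor for it, had 140.4 with CsA and 724 without treatment, 5.16-fold lower. Ccl8 had 1755 with CsA and 4984 without treatment, and its syngraft value, 1709, was close to that with CsA. Higher with CsA was Cx3cr1, the fractalkine receptor of patrolling monocytes and resident macrophages, with 195 with CsA, 35.5, 38.6 and 50.1 with ABH4, BH4 and NIL, 42.1 without treatment and 166 in the syngraft. Its CsA and syngraft values stood apart from the 4 other allografts. The stromal chemokines Cxcl12, Cxcl13 and Cxcl14 were 2.14-fold, 2.71-fold and 2.67-fold higher, each higher still in the syngraft.

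Interleukins and their receptors stood at least 1.5-fold lower in 19 of 38, against 1 that was higher, for a median of -0.59. Il6, a cytokine of inflamed tissue, had 83.3 with CsA, 409.6, 176 and 368 with ABH4, BH4 and NIL, 434 without treatment and 81.7 in the syngraft, 5.21-fold lower. Il18bp, a secreted interleukin-18 inhibitor, was 4.37-fold lower and Il18r1 at least 4.69-fold lower. The 1 higher member was Il33, an alarmin of stromal cells, with 136 with CsA and 36.2 without treatment, 3.74-fold higher, although ABH4 had 169.9. Of 26 genes of the TNF superfamily, 8 were lower and 1 higher, with a median of -0.32. Ltb, lymphotoxin beta of lymphocytes, was at the floor with CsA and at 357 without treatment, at least 10.3-fold lower.

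Macrophage genes divided in both directions. Of 30 measured, 13 were at least 1.5-fold lower and 7 higher, with a median of -0.34. The 4 macrophage markers used to check cell types differed less than 1.5-fold. Csf1r, the receptor that keeps macrophages alive, had 1868 with CsA and 2027 without treatment, Cd68 720.0 with CsA and 799 without treatment, and Lyz2 4029 with CsA and 3687 without treatment. Adgre1, which encodes F4/80, had 664 with CsA and 495 without treatment. The 4 together summed to 7282 with CsA, between 7007 and 9201 in the other allografts and 7391 in the syngraft, so the CsA value lay inside that range.

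The lower members had varied known roles. Msr1, a scavenger receptor, had 167 with CsA, 869, 915 and 699.7 with ABH4, BH4 and NIL, 838 without treatment and 145 in the syngraft, 5.02-fold lower. Clec4e, the receptor Mincle, had 100.2 with CsA and 501 without treatment, 5.0-fold lower, and Aif1, which is also widely used as a macrophage marker, was 3.01-fold lower. Itgam, the integrin chain CD11b, had 129 with CsA and 249 without treatment, 1.93-fold lower. Arg1, arginase, had 324 with CsA, 864 without treatment and the floor in the syngraft, so that it was 2.66-fold lower with CsA and still at least 3.22 above the syngraft on the log2 scale. Mertk, a receptor for the uptake of dying cells, was 2.24-fold lower.

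The higher members were Gpnmb, Trem2, Folr2, Lyve1, Mrc1, Retnla and Cd163, and Trem2, Retnla and Cd163 were at the floor without treatment. Gpnmb, a glycoprotein of lipid-laden macrophages, had 332 with CsA, 108, 535 and 153 with ABH4, BH4 and NIL, 43.3 without treatment and 148 in the syngraft. It was 7.68-fold higher with CsA than without treatment, and BH4 was higher still. Trem2, a lipid receptor, had 179 with CsA and 171 with BH4 and was at the floor without treatment, at least 5.16-fold higher. Folr2, Lyve1 and Mrc1, found on resident cardiac macrophages, were 2.65-fold, 2.4-fold and 2.04-fold higher. Lyve1 had 155 with CsA, 121, 138 and 41.0 with ABH4, BH4 and NIL, 64.5 without treatment and 177 in the syngraft. Lyve1 is also a lymphatic endothelial gene. For these 3 genes the untreated and NIL arrays were the lowest.

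**Figure D4:**
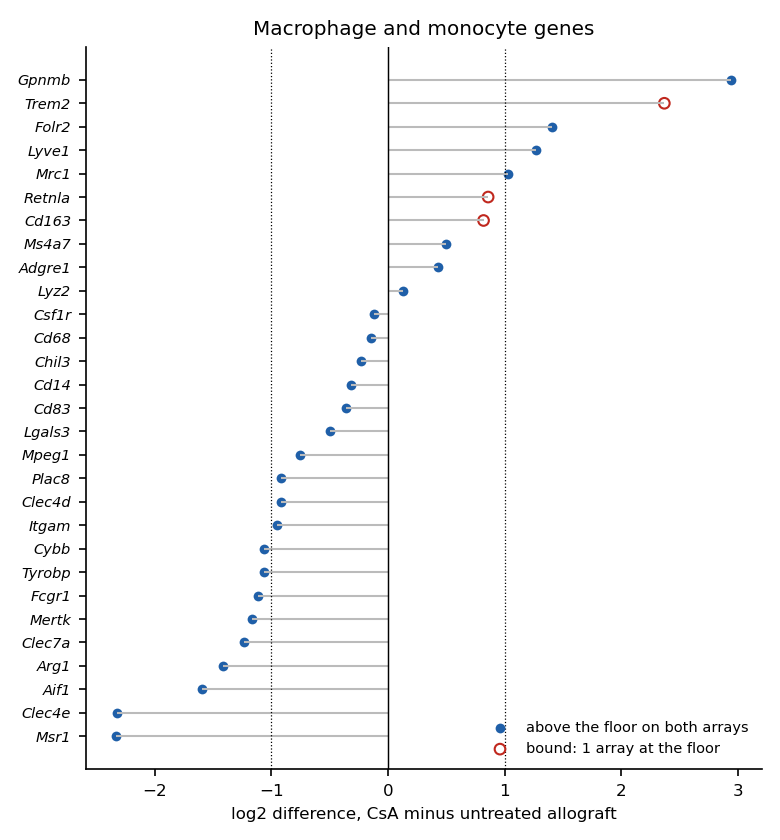
Measured macrophage and monocyte genes are ordered by their log2 difference of CsA minus untreated allograft (x); filled points were above the floor on both arrays, open points are bounds with 1 array at the floor, and the gene at the floor on both arrays is left out. Gpnmb and Trem2 lie beyond 2-fold on the right, Msr1 and Clec4e farthest left, and Csf1r, Cd68 and Lyz2 near 0.

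Signalling genes of phagocytes and other leukocytes were lower almost throughout, in 19 of 23 and higher in 0, with a median of -1.06. Fcgr4, an activating Fc receptor, had 317 with CsA, 1319, 1323 and 1098 with ABH4, BH4 and NIL, 1228 without treatment and 158 in the syngraft, 3.87-fold lower. Ptprc, the pan-leukocyte protein CD45, had 766 with CsA and 2596 without treatment, 3.39-fold lower. The GTPase Rac2 of blood cells was 3.71-fold lower. Leukocyte adhesion genes included 9 of 20 that were at least 1.5-fold lower and 1 higher, with a median of -0.39, and Itgb2, the shared beta chain of leukocyte integrins, had 489.9 with CsA and 2036 without treatment, 4.16-fold lower.

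Acute-phase and neutrophil genes gave the largest single difference. Saa3, a serum amyloid made in inflamed tissue, had 120.3 with CsA, 3669.5, 2576 and 2191 with ABH4, BH4 and NIL, 2476 without treatment and 1538 in the syngraft, 20.6-fold lower. Here the CsA array lay far below the syngraft too, as in 35 of the 497 lower genes, which were at least 2-fold below it. Haptoglobin, Hp, had 104 with CsA, 417 without treatment and 1006 in the syngraft. The calprotectin subunits S100a8 and S100a9 had the same order, with S100a8 at 106 with CsA, 383 without treatment and 607 in the syngraft. The 3 neutrophil markers, these subunits and Mpo, summed to 269 with CsA, between 637 and 811 in the other allografts and 1176 in the syngraft. Mpo alone was not lower, with 78.6 with CsA, 58.9, 66.5 and 92.9 with ABH4, BH4 and NIL, 64.1 without treatment and 106 in the syngraft. The whole list of 21 genes had 7 lower, 2 higher and 8 at the floor on both arrays, with a median of 0. Fpr2, a formyl peptide receptor of neutrophils and macrophages, had 114 with CsA and 1043 without treatment, 9.18-fold lower.

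Complement genes were lower by 1.5-fold or more in 4 of 16 measured and higher in 0, and their median was -0.08 (0 on the deposited scale), with Cfb, factor B of the alternative pathway, 4.71-fold lower. Among lysosomal genes, 5 of 20 were lower and 2 higher, with a median of -0.41. Ctsk, a collagen-cleaving cathepsin, was the largest difference there, with 287 with CsA, 153, 359 and 97.1 with ABH4, BH4 and NIL, 59.7 without treatment and 392 in the syngraft, 4.8-fold higher.

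B and plasma cell genes were not lower. Of 14 measured, 5 passed 1.5-fold upwards and 0 downwards, with a median of 0.23. Jchain, the joining chain of secreted IgA and IgM, had 1313 with CsA, 1840.2, 473 and 1649 with ABH4, BH4 and NIL, 534 without treatment and 225 in the syngraft, 2.46-fold higher with CsA. Igha, the IgA heavy chain, had 3700.1 with CsA, 5725, 1890.4 and 4199 with ABH4, BH4 and NIL and 1809.7 without treatment, 2.04-fold higher. For both, ABH4 and NIL were above CsA, and BH4 was near the untreated allograft.

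Matrix genes formed the main group that was higher with CsA. Of 9 fibrillar collagens, 7 passed 1.5-fold upwards and 0 downwards, with a median of 1.49. Col1a1, a chain of type I collagen, had 4708 with CsA, 1513, 3877 and 626 with ABH4, BH4 and NIL, 680.4 without treatment and 5537 in the syngraft. It was 6.92-fold higher with CsA than without treatment, and BH4 lay between ABH4 and CsA. Col1a2, its partner chain, had 5643 with CsA and 1003 without treatment, 5.63-fold higher, and Col3a1 5594 with CsA and 1994 without treatment, 2.81-fold higher. Of 14 collagens of types VI, VIII and related kinds, 9 were higher and 0 lower, with a median of 1.75. Col8a1 had 1073 with CsA, 161, 209.8 and 117 with ABH4, BH4 and NIL, 108 without treatment and 1482 in the syngraft, 9.96-fold higher. For this collagen the other allografts all stayed far below CsA. Basement membrane genes stood at least 1.5-fold higher in 6 of 19, against 0 that were lower, for a median of 0.32, with Lama2 and Lama4 each 2.98-fold higher.

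The small leucine-rich proteoglycans, which bind collagen fibrils, included 7 of 9 that were at least 1.5-fold higher and 0 lower, with a median of 1.95. Lum, lumican, had 1423 with CsA, 322, 637 and 138 with ABH4, BH4 and NIL, 151 without treatment and 1759 in the syngraft, 9.43-fold higher. Decorin, Dcn, had 4079.6 with CsA and 954 without treatment, 4.28-fold higher. CsA was above all 4 other allografts in 7 of the 9.

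Of 31 matricellular and elastic fibre genes, 25 passed 1.5-fold upwards and 1 downwards, with a median of 1.56. Mgp, an inhibitor of calcification, had 4696 with CsA, 899, 1841 and 351 with ABH4, BH4 and NIL, 318 without treatment and 6774 in the syngraft, 14.8-fold higher. Postn, periostin of activated fibroblasts, had 3019 with CsA, 506, 1612 and 231 with ABH4, BH4 and NIL, 219 without treatment and 3142 in the syngraft, 13.8-fold higher. In both genes NIL was close to the untreated allograft and BH4 stood between. Sparcl1 was at least 10.8-fold higher, the microfibril protein Mfap5 8.06-fold, dermatopontin Dpt 9.11-fold and elastin Eln 4.85-fold. The 1 lower member was Tgfbi, a secreted adhesion protein that macrophages also make, with 527 with CsA, 2349, 2035 and 1605 with ABH4, BH4 and NIL, 2608 without treatment and 568 in the syngraft, 4.95-fold lower.

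Enzymes that build and cut matrix were higher by 1.5-fold or more in 18 of 31 measured and lower in 3, and their median was 0.74. The crosslinking enzymes Lox and Loxl1 were 4.36-fold and 5.66-fold higher, and Pcolce, which speeds collagen processing, was 5.5-fold higher. The gelatinase Mmp2 had 492 with CsA and 97.4 without treatment, 5.05-fold higher. The 3 lower members were Plaur, the urokinase receptor, 1.85-fold, the protease Adamts1 1.82-fold, and the protease inhibitor Timp3 1.67-fold.

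Fibroblast genes outside the matrix had the same direction: 17 of 24 were higher and 0 lower, and the median was 1.83. Pdgfra, a receptor that marks fibroblasts, had 244 with CsA, 95.1 with ABH4 and 186 with BH4, was at the floor with NIL and without treatment, and had 309.9 in the syngraft. It was at least 7.02-fold higher with CsA. Abca8a, a lipid transporter, was 10.2-fold and Rcn3, a chaperone of collagen-making cells, at least 9.5-fold higher. Cygb, cytoglobin of fibroblasts, had 483 with CsA and 56.8 without treatment, 8.51-fold higher. The 5 fibroblast markers summed to 20269 with CsA, 9121, 16473 and 4177 with ABH4, BH4 and NIL, 4666 without treatment and 23375 in the syngraft. These sums ran from near the untreated level with NIL to near the syngraft level with CsA. How far the number of fibroblasts moved with these genes was not tested. Tissue that can be carried along with a heart was checked with 2 fat, 3 skeletal muscle and 2 salivary gland markers, all at the floor on both arrays. Other markers were above it. The 2 measured erythroid markers summed to 532 with CsA, 263 without treatment and 597 in the syngraft. The 3 mesothelium markers summed to 151 with CsA, 109 without treatment and 104 in the syngraft, and the nerve and glia marker Sox10 had 105 with CsA and 113 without treatment. In the longer lists, 6 of 12 adipocyte, 8 of 16 skeletal muscle and 8 of 11 salivary gland genes were at the floor on both arrays. At least 1.5-fold higher with CsA were 1, 2 and 2 members of these lists in the same order, and 1 skeletal muscle gene was lower. The part of such tissue in the results was not tested.

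Growth factors of the insulin-like family went the same way as the matrix genes, since 7 of 11 were higher and 0 lower, and their median was 1.32. Igf1 had 474 with CsA, 69.8, 115 and 41.8 with ABH4, BH4 and NIL, the floor without treatment and 484 in the syngraft, at least 13.6-fold higher. The binding proteins Igfbp4 and Igfbp7 were 5.41-fold and 3.64-fold higher. Ptn, the growth factor pleiotrophin, had 370.3 with CsA, 39.1 and 141 with ABH4 and BH4, the floor with NIL and without treatment, and 132 in the syngraft. It was at least 10.6-fold higher with CsA than without treatment and 1.48 above the syngraft on the log2 scale. Prg4, lubricin, likewise had 892 with CsA, 298, 470.1 and 154 with ABH4, BH4 and NIL, 103 without treatment and 219.7 in the syngraft, 8.7-fold higher. The Wnt antagonists Sfrp1 and Sfrp2 were 7.96-fold and 7.64-fold higher, in a list with 9 of 18 higher and 0 lower, with a median of 0.57. Of 29 TGF-beta and BMP genes, 7 were higher and 2 lower, with a median of 0.15, and Tgfb1 had 505 with CsA and 675 without treatment. Among 23 other growth factors 5 were higher and 2 lower, with a median of 0, and Angpt2, an antagonist of vessel stability, was 3.13-fold lower.

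Vessel genes were higher by smaller amounts. Smooth muscle and pericyte genes stood at least 1.5-fold higher in 11 of 21, against 2 that were lower, for a median of 0.68. The 4 smooth muscle markers, however, summed to 2180 with CsA, 2018 without treatment and 2359 in the syngraft. With ABH4, BH4 and NIL they summed to 1587, 2028 and 2105. Of the 4 markers, 1 was at the floor with CsA and 2 without treatment. Rgs5, a pericyte gene, had 1012 with CsA, 297, 491 and 209.9 with ABH4, BH4 and NIL, 207 without treatment and 972 in the syngraft, 4.89-fold higher. Endothelial genes included 8 of 27 that were at least 1.5-fold higher and 2 lower, with a median of 0.36. Aplnr, the apelin receptor of vein and capillary endothelium, had 469.8 with CsA, 46.6 and 49.4 with ABH4 and BH4, the floor with NIL, 54.8 without treatment and 749 in the syngraft, 8.58-fold higher. The other allografts were all close to the floor for it. Procr, the endothelial protein C receptor, was 3.45-fold lower. The 5 endothelial markers summed to 1095 with CsA, between 732 and 871 in the other allografts and 1375 in the syngraft.

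Contractile genes of the heart muscle were near the untreated level. Of 29 sarcomere and Z disc genes, 2 passed 1.5-fold upwards and 0 downwards, with a median of 0.04 (0.22 on the deposited scale). Myh7, the slow myosin heavy chain, had 3014 with CsA and 3969.8 without treatment, and Myh6, the fast one, 4339 with CsA and 3578 without treatment, with another probe set of Myh6 of opposite sign. The 2 higher members were Ckm and the atrial light chain Myl4, 1.55-fold higher. Ckm, muscle creatine kinase, had 1248 with CsA, 369.9, 739 and 409.7 with ABH4, BH4 and NIL, 459.6 without treatment and 1676 in the syngraft, 2.71-fold higher. The natriuretic peptides, which the loaded heart releases, had 8360.3 with CsA and 8594 without treatment for Nppa and 6755 with CsA and 6612 without treatment for Nppb. Calcium handling and channel genes were higher by 1.5-fold or more in 3 of 26 measured and lower in 1, and their median was 0.10, and respiratory chain and citrate cycle genes stood at least 1.5-fold higher in 1 of 42, against 2 that were lower, for a median of -0.03 (0.15 on the deposited scale).

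Metabolic genes tied to low oxygen were lower. In the glycolysis and hypoxia list, 11 of 26 were at least 1.5-fold lower and 0 higher, with a median of -0.45. Slc16a3, the lactate exporter, had 177 with CsA, 504, 474 and 640.4 with ABH4, BH4 and NIL, 655 without treatment and 229 in the syngraft, 3.71-fold lower. Pfkfb3, an activator of glycolysis, was 3.39-fold and Adm, the vasodilator adrenomedullin, 3.29-fold lower. Fatty acid oxidation genes included 4 of 28 that were at least 1.5-fold lower and 0 higher, with a median of -0.04 (0.08 on the deposited scale). Pdk4, which shuts glucose out of mitochondria, had 456 with CsA, 1398 without treatment and 205 in the syngraft, 3.07-fold lower, and Angptl4 was 2.87-fold lower.

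Housekeeping and ribosomal genes give the level against which such medians are read. After the medians were matched, the housekeeping list had a median of -0.22 and the ribosomal list -0.17, and they were -0.04 and 0.01 on the deposited scale. Among genes above the floor, the brightest quartile by mean signal had a median difference of -0.22 and the dimmest quartile 0.11.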

How the data were processed

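Total RNA of cardiac grafts was measured on 6 arrays, 1 per group named in the labels. The authors deposited 1 signal intensity per probe set and array. It was linear, and its mean was 200.1 on each array after trimming 2% at each end; software and summarisation are not given in the sources used here. Here each array was rescaled to the mean of the 6 medians over non-control probe sets, signals under the 30th percentile (34.8) were raised to it, and differences were taken on the log2 scale. This also replaced 1 deposited value at or below 0 on the compared arrays. A gene took its brightest probe set, by mean log2 signal, among the 20380 listed for exactly 1 gene symbol in the platform annotation, leaving 12393 genes; 691 probe sets with several symbols and 1555 with none listed were not used.

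CsA minus untreated allograft is a log2 difference of 1 array each, so no test, error or p-value exists, and the number of arrays limits the precision. The groups and the 64 gene lists (1231 of 1385 entries measured) were chosen with earlier results of these data known. A list is described by its members at least 1.5-fold higher or lower and its median. Genes were named by rule: the 12 largest differences per direction, the 8 largest bounds, the 6 largest in each list, all members of 10 main lists, fixed calcineurin, cytokine and heart genes, and the 5 genes on each side of the 2-fold threshold. Adamts1, Egr2, Egr3, H2-D1, H2-K1, Icosl, Ifit1, Ifngr1, Ncr1, Plaur, Psmb5, Timp3 and, in the closing section, Cyp3a11 were named after their values were seen. Csf2, Gata3, Il3 and Tnfsf11, given as at the floor, were also named outside the rule. Of the 12393 genes, 9882 had a RefSeq promoter. Alternatives were the deposited scale, quantile normalization, floors at the 10th and 50th percentiles, all probe sets, their mean, another reference, and the BH4 array left out. The procedure was tested on simulated data. Python 3.11.15, numpy 2.4.6, pandas 2.3.3 and matplotlib 3.10.9 were used.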

Additional observations from a re-analysis of the deposited data

How the results depend on the processing

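No paired analysis was possible because each group had 1 array. The 2-fold counts of 396 higher and 497 lower genes became 594 and 323 on the deposited scale and 405 and 399 after quantile normalization. Lowering the floor to the 10th percentile gave 1087 and 889, raising it to the 50th gave 181 and 339. They were 316 and 407 with the mean over a gene's probe sets, and 609 and 862 when every probe set counted alone. With the floor at the 10th percentile, CsA was at least 2-fold beyond all 4 other allografts in 175 genes upwards and 345 downwards. The medians of all 64 lists moved by less than 1.5-fold on the deposited scale, after quantile normalization and with the floor at the 10th percentile. With the floor at the 50th percentile 4 moved further, among them the T cell receptor list, to -0.91, and with the probe set mean 1 did, the fibrillar collagens, to 2.14. The cause of neither was tested. Taking the median of the 4 other allografts in place of the untreated allograft, an alternative chosen after seeing the data, gave 276 higher and 392 lower genes. This reference was also applied to 1174 genes, those named by rule and all measured list members. Of them, 4 that were at least 1.5-fold different from the untreated allograft changed sign. They were Kcnq1, to 0.0102, Ltf, to -0.0036, Mx2, to 0.0716, and Myh2, to -0.18, and the cause was not tested. Sign changes of genes with smaller differences were not counted. Apart from the 4, 52 of the 1174 genes moved by at least 1.5-fold against this reference. With the floor at the 10th percentile 111 moved that far, with the floor at the 50th 138, and with the probe set mean 55. After quantile normalization 1 did, and on the deposited scale all 1174 moved less. Leaving out the BH4 array, also chosen after seeing the data, moved the genes at least 2-fold above the other allografts to 185, from 94. Those at least 2-fold below moved to 273, from 218. With 1 array fewer to exceed neither count can fall, and leaving out another array was not tried. The signals of 2495 genes at the floor on both arrays give no difference.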

Other observations

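Several gene groups outside the immune and matrix lists also held genes that differed with CsA, again as values of 1 array a side. The housekeeping list, for comparison, had a median of -0.22, with 2 of 12 genes at least 1.5-fold lower and 0 higher. DNA replication and mitosis genes stood at least 1.5-fold lower in 14 of 37, against 0 that were higher, for a median of -0.28 (-0.13 on the deposited scale), and CsA was below all 4 other allografts in 23 of them. Rrm2, a ribonucleotide reductase subunit needed in S phase, had 152 with CsA, 426, 309 and 340.4 with ABH4, BH4 and NIL, 383 without treatment and 106 in the syngraft, 2.51-fold lower with CsA. The CsA value lay outside the other allografts. Cdkn1a, the cell cycle inhibitor p21, was 2.45-fold lower as well. Apoptosis genes included 10 of 22 that were at least 1.5-fold lower and 0 higher, with a median of -0.35. Casp1, the inflammasome protease, had 88.5 with CsA and 294 without treatment, 3.32-fold lower, and the mitochondrial death genes Bid and Bak1 3.13-fold and 3.08-fold lower.

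Lists of stress genes differed in how many members were lower, where 12.2% of all genes were at least 1.5-fold lower and 9.27% higher. Those shares include 2495 genes at the floor on both arrays, against 0 in the unfolded protein response, glutathione and heat shock lists, so they understate the comparison level. Genes of the unfolded protein response were lower by 1.5-fold or more in 8 of 23 measured and higher in 0, and their median was -0.49, with Chac1, which degrades glutathione, 2.55-fold lower and Ddit3, the stress factor CHOP, 2.06-fold lower. Glutathione and thioredoxin genes stood at least 1.5-fold lower in 10 of 32, against 1 that was higher, for a median of -0.23, about that of the housekeeping list. Srxn1, sulfiredoxin, had 599 with CsA, 1022, 1228 and 599.7 with ABH4, BH4 and NIL, 1354 without treatment and 264 in the syngraft. NIL was as low as CsA for this gene. Heat shock genes included 2 of 20 that were at least 1.5-fold higher and 3 lower, with a median of -0.35. Hspa1a, the inducible chaperone, was one of the 2, with 425 with CsA and 224 without treatment, 1.9-fold higher. In the nitric oxide, pteridine and arginine list 5 of 20 were lower and 4 higher, with a median of -0.19, and the higher ones included Gucy1a1 and Gucy1b1, subunits of the nitric oxide receptor, 2.43-fold and 2.15-fold, and Ddah2, 2.78-fold.

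Among 12 drug transport and cytochrome genes, Cyp1b1 was the only one at least 2-fold higher, with 326 with CsA, 153, 269 and 107 with ABH4, BH4 and NIL, 68.1 without treatment and 286 in the syngraft, 4.79-fold. Cyp3a11, a liver enzyme that breaks down CsA, had 58.2 with CsA and 57.3 without treatment. Of 13 dendritic cell genes 2 were higher and 3 lower, and of 12 mast cell and eosinophil genes 2 were higher and 1 lower. The mast cell protease Cpa3 had 92.0 with CsA and 38.2 without treatment, 2.41-fold higher. Clock genes, which follow the hour of removal, were higher by 1.5-fold or more in 1 of 15 measured and lower in 0, and their median was 0.16.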
